A study of Mus musculus with 10 samples.

Results

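MAP3 kinases sit at the top of the MAP kinase cascades. They phosphorylate MAP2 kinases, which activate the JNK, p38 and ERK kinases. Map3k12 encodes DLK, the dual leucine zipper kinase, which is known in neurons for relaying axon damage and trophic factor withdrawal to JNK through the MAP2 kinases MKK4 and MKK7. Its closest relative is LZK, encoded by Map3k13, which shares the kinase and leucine zipper arrangement and also signals to JNK. Loss of DLK therefore raises the question whether the transcripts of LZK or of the other MAP3 kinases are set differently in its absence.

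The family was followed here through 10 genes, Map3k12, Map3k13, Map3k9, Map3k10, Map3k11, Map3k1, Map3k3, Map3k4, Map3k5 and Map3k7. A probe belonged to a gene when the RefSeq accession in the scanner files belonged to that gene in a RefSeq table of the mouse. Of the 39429 probes on the array, 16 belonged to 9 of the 10 genes, among 20144 genes named in this way, and no probe was matched to Map3k10. The hippocampus of 5 DLK conditional knockout (cKO) mice and 5 DLK wild-type (WT) mice was measured, with 1 two-colour Agilent array per mouse. Adult mice of both genotypes had eaten a tamoxifen diet for 3 weeks, the means by which DLK was knocked down. The sample was labelled with Cy5 and a universal reference RNA from Stratagene with Cy3 on every array. The sources used here do not name the recombinase, the cells in which it acted, the deleted exons, the ages in weeks or the sexes.

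All values are log2 ratios of hippocampus over reference, and differences are cKO minus WT, with n = 5 mice per genotype. A probe entered the tests when the scanner software called Cy5 well above background on 5 or more of the 10 arrays. This held for 14 of the 16 family probes and for 28682 probes in all. Median Cy5 signals were 146 to 191 on cKO arrays and 171.75 to 202 on WT arrays, with cKO replicate 5 the dimmest. There were 4 cKO arrays on 1 slide, 1 cKO and 3 WT arrays on another, and 2 WT arrays on the third. Only the slide with 1 cKO array held both genotypes, so on the others slide and genotype cannot be told apart. Of 9 markers of hippocampal principal cells, all 9 were measured, with a mean log ratio of 2.43 to 2.84 in cKO and 2.46 to 2.87 in WT mice. The 5 pan-neuronal markers had a mean log ratio of 5.030 to 5.208 in cKO and 4.901 to 5.028 in WT mice. Every cKO mouse was thus above every WT mouse, by a narrow margin. Singly the genotypes overlapped at each of the 5, and none passed in limma. Choroid plexus markers stood apart between the genotypes. Of 11 such markers 10 were measured and Cldn2 was not kept. The 10 had summed ratios of 60.1 to 151 in cKO and 25.7 to 58.0 in WT mice. None of them passed in limma, and 9 had an unadjusted p under 0.05, against 4.22% of all named genes. Singly, the genotypes were apart at F5, Kcnj13 and Ttr and overlapped at the others. Of 9 oligodendrocyte markers 8 had higher values in cKO, where 57.5% of all named genes did, and Mbp had a lower one. None of the 9 passed in limma, and 5 had an unadjusted p under 0.05. Their summed ratios were 215 to 268 in cKO and 146 to 218 in WT mice. Striatal markers had a mean log ratio of 2.67 in WT replicate 1 and of 1.56 to 1.80 in the other 9 mice. The part of these markers in the results below was not tested. In bulk tissue, fewer cells of a type and less RNA per cell cannot be told apart.

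The deleted gene was examined first. Map3k12 had log2 ratios of 0.64, 0.11, 0.64, 0.68 and 0.48 in cKO replicates 1 to 5. In WT replicates 1 to 5 it had 2.11, 1.76, 1.74, 1.87 and 2.15. Every cKO mouse was lower than every WT mouse. Of all 28682 probes 0.223% were separated in this direction. The difference at Map3k12 was −1.41 (SE 0.12), the most negative of any probe tested, with a limma adjusted p of 0.000502. Of all probes 0.00349% passed as lower and 0.00697% as higher in cKO. The next was −0.79, at a probe of Lat, a gene singled out here after its value was seen (limma adjusted p = 0.99995). Permuting the genotypes exactly over the 10 mice gave a two-sided p of 0.00794, the smallest that 252 arrangements allow.

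Transcript remained detectable in the knockout tissue. The Map3k12 spot was well above background in Cy5 on all 5 cKO arrays, at 5.08 to 13.9 times its local background, against 14.1 to 24.5 times on WT arrays. With the background subtracted and no further normalisation, mean Cy5 was 217.8 in cKO and 570.3 in WT mice, so that cKO mice had 38.2% of the WT signal. In the normalised ratios cKO mice had 37.5% of the WT level (95% interval 31.4% to 44.8%). This share depended on the background treatment. It was 33.3% with a smaller offset of 16, 29.0% with plain background subtraction, 28.5% with the scanner software's processed signals and 44.3% from Cy5 alone, where the gene missed the threshold (limma adjusted p = 0.0717). The threshold was also missed with no marked spot removed before the background fit, at 41.9% of WT (limma adjusted p = 0.969). Within slide 2, where cKO replicate 2 alone faced 3 WT mice, the share was 28.6%, and the threshold was missed there too. The array carries 1 Map3k12 probe, for NM_001163643, and its place relative to the deleted exons is not given, so the remaining signal cannot be divided between intact transcript and transcript that lacks those exons. The Cy3 reference signal of this spot was 314 on cKO replicate 2, against 102.5 to 128 on the other cKO arrays and 106 to 117 on WT arrays. The same array had the lowest log ratio and the highest cKO Cy5 signal, 390.5. Without it the difference was −1.31. The share of 28.6% within slide 2 rests on this array as its only cKO mouse. Cy5 signals on the WT arrays of that slide were 550 to 614.

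**Figure D1:**
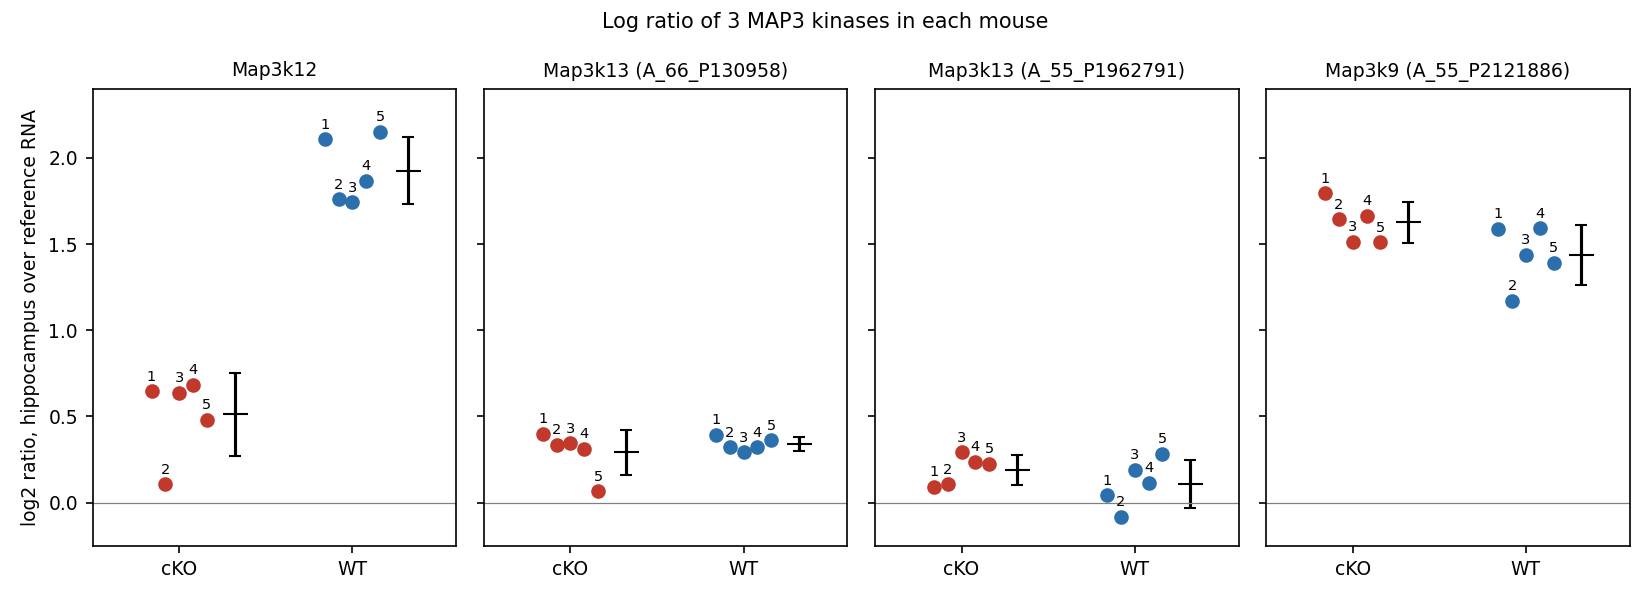
Log2 ratio of hippocampus over reference RNA (vertical axis) for Map3k12, both Map3k13 probes and the measured Map3k9 probe, with 1 numbered point per mouse and the mean ± SD of 5 mice in black, cKO left and WT right. Map3k12 was between 0.11 and 0.68 in cKO mice and between 1.74 and 2.15 in WT mice, while the genotypes overlapped at the other 3 probes.

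Map3k13, which encodes LZK, did not pass the test at either of its probes. The brighter probe, A_66_P130958, had log2 ratios of 0.40, 0.33, 0.34, 0.31 and 0.07 in cKO replicates 1 to 5, against 0.39, 0.32, 0.29, 0.32 and 0.36 in WT replicates 1 to 5. Apart from cKO replicate 5, the mice of both genotypes lay within the same narrow band. The difference was −0.05 (SE 0.07, limma adjusted p = 0.99995), with a 95% interval of the cKO level from 87.8% to 107% of WT. An exact two-sided permutation test gave p = 0.627. Without cKO replicate 5 the difference changed sign, to 0.0093, and its SE was 0.051.

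The second Map3k13 probe, A_55_P1962791, was dim. Its Cy5 signals were 57 to 73 in cKO and 60 to 70 in WT mice, and Cy3 was well above background on 0 of the 10 arrays. Log ratios were 0.09, 0.11, 0.29, 0.24 and 0.23 in cKO replicates 1 to 5. WT replicates 1 to 5 had 0.04, −0.08, 0.19, 0.12 and 0.28. The genotypes overlapped, and the difference was 0.08 (SE 0.07, limma adjusted p = 0.99995, exact permutation p = 0.310). Its interval reached 1.18-fold higher in cKO with the offset of 50 and 1.91-fold higher with plain background subtraction, so this probe sets only a loose limit. Without WT replicate 2, the lowest mouse, the difference was 0.03. The 2 Map3k13 probes did not vary together, with a Pearson r of −0.25 across the 10 arrays, all of which share 1 reference RNA.

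The mixed lineage kinases proper, MLK1 (Map3k9), MLK2 (Map3k10) and MLK3 (Map3k11), bind the small GTPases Rac and Cdc42 and also feed JNK. Map3k9 was measured by 1 of its 3 probes, A_55_P2121886, for NM_001174107. It had log2 ratios of 1.80, 1.65, 1.51, 1.66 and 1.51 in cKO replicates 1 to 5, against 1.59, 1.17, 1.44, 1.59 and 1.39 in WT replicates 1 to 5. The cKO values lay in the upper part of the range and 3 of the 5 exceeded every WT value. The difference of 0.19 (SE 0.09) was the highest among the family probes and had an unadjusted p of 0.0490, but its limma adjusted p was 0.99995. Of all probes 3.82% had an unadjusted p under 0.05, and of the 13 family probes other than that of Map3k12 it was 1. WT replicate 2 was the lowest mouse, and without it the difference was 0.12. The difference stayed above 0 in all 28 alternatives, although some of them, such as other filters on dim probes, cannot change it. Its unadjusted limma p was under 0.05 in 15 of the 28, and its adjusted p was under 0.05 in none. With no marked spot removed before the background fit the difference was 0.30, with the processed signals 0.08 and with Cy5 alone 0.09. With array weights it was 0.25 (interval 105% to 135% of WT), with an unadjusted p of 0.0124 and a limma adjusted p of 0.458. With slide as a block, where it rests on cKO replicate 2, it was 0.19 (SE 0.17).

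The other 2 Map3k9 probes were near background. A_51_P300867, for NM_177395, had Cy5 signals of 35 to 66 in cKO and 35 to 62.5 in WT mice and was well above background on 1 cKO and 2 WT arrays. A_55_P2085576, for NM_001174107, had signals of 34 to 41 in cKO and 38 to 48 in WT mice and was well above background on none of the 10 arrays. Neither was tested.

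Map3k11 had log2 ratios of −0.35, −0.49, −0.58, −0.35 and −0.46 in cKO replicates 1 to 5, against −0.51, −0.53, −0.70, −0.50 and −0.45 in WT replicates 1 to 5. The genotypes overlapped, although the 2 highest cKO values exceeded every WT value. The difference was 0.09 (SE 0.07, limma adjusted p = 0.99995), and the interval of the cKO level ran from 96.5% to 118% of WT. It was 0.05 without WT replicate 3 and 0.02 (SE 0.13) with slide as a block. With array weights it was 0.16 (interval 101% to 123% of WT), with an unadjusted p of 0.0270 and a limma adjusted p of 0.458.

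The MEKK genes encode MAP3 kinases outside the mixed lineage group. Map3k1 (MEKK1), a kinase that is also a ubiquitin ligase, was read by 2 probes that stood far below the reference RNA. At A_55_P1961084 the log2 ratio was −2.63 ± 0.06 in cKO and −2.61 ± 0.06 in WT mice (SD, n = 5 each), so the reference had 6.21 times the cKO and 6.10 times the WT signal. The second probe, A_51_P402193, gave −2.60 ± 0.06 in cKO and −2.56 ± 0.07 in WT mice (SD, n = 5 each). The differences of the 2 probes were −0.03 (SE 0.05) and −0.04 (SE 0.05), and their log ratios correlated across the 10 arrays with a Pearson r of 0.76.

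Map3k3 (MEKK3), a kinase upstream of ERK5 and important in endothelium, was read by a probe that is spotted 10 times on each array. Its log2 ratio was −0.59 ± 0.08 in cKO and −0.55 ± 0.04 in WT mice (SD, n = 5 each), a difference of −0.04 (SE 0.05). Spots of 1 array, 8 to 10 after the removal of marked spots, had SDs of 0.0470 to 0.0943 with a median of 0.0695. The error of an array's mean over its spots, this SD over the square root of the number of spots, had a median of 0.022. The means of different mice had SDs of 0.0780 in cKO and 0.0438 in WT mice, wider than that error. Every other member has 1 spot per probe.

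Map3k4 (MEKK4), which is activated by the Gadd45 proteins, gave Cy5 signals of 9227 to 18410 in cKO and 13160 to 17307.5 in WT mice. Its log2 ratios were 0.44, 0.42, 0.17, 0.67 and 0.03 in cKO replicates 1 to 5, a wider range than the 0.43, 0.47, 0.40, 0.19 and 0.50 in WT replicates 1 to 5. The cKO mice held both the highest and the lowest value. The difference was −0.05 (SE 0.11, limma adjusted p = 0.99995), and it was 0.03 without cKO replicate 5.

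Map3k5 encodes ASK1, a stress kinase held inactive by thioredoxin. At A_55_P2079967 it had a log2 ratio of 0.29 ± 0.06 in cKO and 0.28 ± 0.07 in WT mice (SD, n = 5 each), a difference of 0.01 (SE 0.05). At A_52_P656714, cKO replicates 1 to 5 had 0.96, 1.29, 0.60, 0.91 and 0.64, and WT replicates 1 to 5 had 0.98, 0.77, 0.77, 0.91 and 0.96. Here too the cKO mice spread on both sides of the WT mice, and the difference was −0.0021 (SE 0.12). With slide as a block it was 0.40 (SE 0.16), which rests on cKO replicate 2, the highest of the 10 mice.

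Map3k7 encodes TAK1, which acts with the Tab proteins downstream of cytokine receptors. Its 3 probes gave different positions against the reference and no difference that passed the test. A_55_P2049086, for NM_009316, was at −0.25 ± 0.06 in cKO and −0.25 ± 0.10 in WT mice (SD, n = 5 each). A_55_P2127804, for the same transcript, was at −0.81 ± 0.10 in cKO and −0.79 ± 0.12 in WT mice. A_52_P175952, for NM_172688, was at 0.05 ± 0.12 in cKO and 0.11 ± 0.08 in WT mice. The differences were −0.0035 (SE 0.06), −0.01 (SE 0.07) and −0.06 (SE 0.07), and the probes correlated by −0.22 to 0.39 across the 10 arrays.

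**Figure D2:**
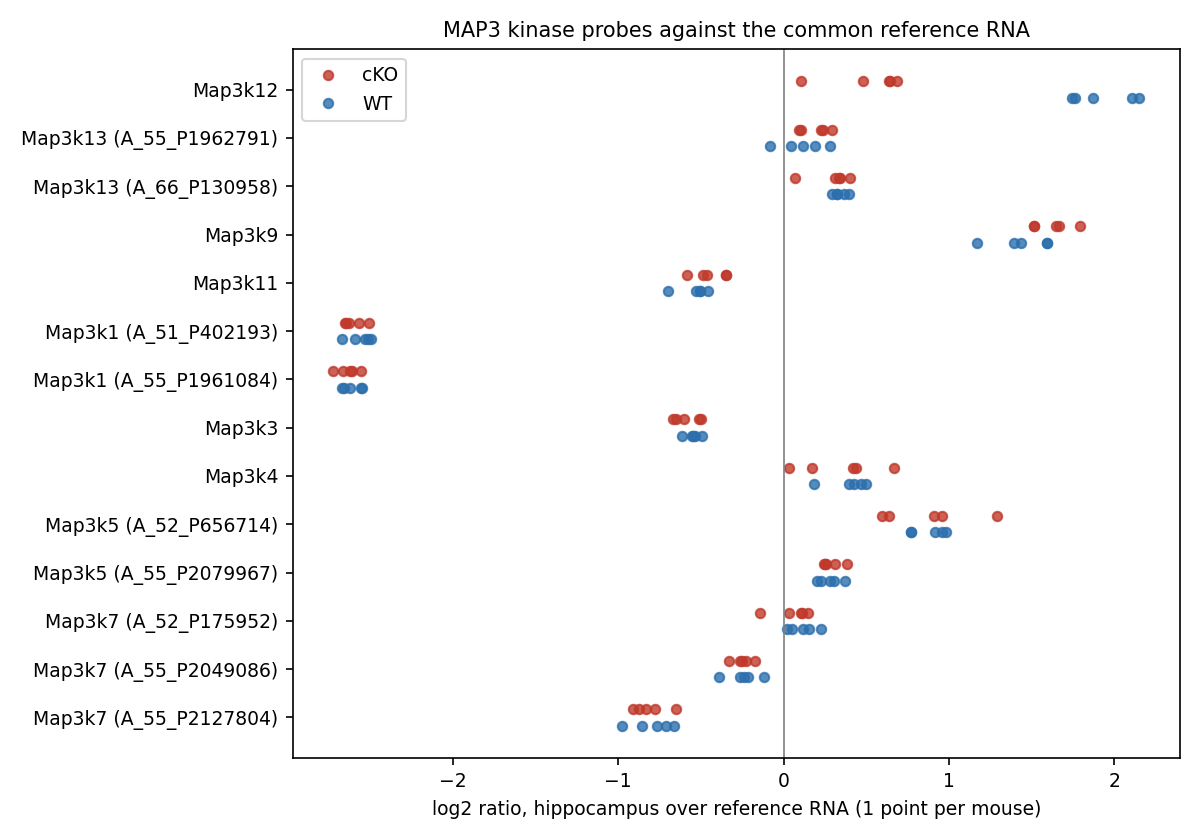
Log2 ratio of hippocampus over reference RNA (horizontal axis) at the 14 measured family probes, with 1 point per mouse, cKO above WT in each row. In both genotypes Map3k1 lay near −2.6, and Map3k12 was the single row in which the 5 cKO and 5 WT points were apart; ratios of different probes are not amounts that can be set against each other.

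Across the family, 6 of the 14 probes were above the reference RNA on all 10 arrays, namely those of Map3k12, Map3k9 and Map3k4, both Map3k5 probes and the brighter Map3k13 probe. Another 6 were below it on all 10, namely those of Map3k11 and Map3k3, both Map3k1 probes and the 2 Map3k7 probes for NM_009316. The remaining 2 had both signs. The number above the reference was 4 with each array centred on its median after loess, 5 with plain background subtraction and 7 on the 4 arrays of slide 2. Map3k12 was at 1.43 times the reference in cKO and at 3.80 times in WT hippocampus. Map3k9 was at 3.09 times the reference in cKO and at 2.71 times in WT hippocampus. Dyes were not swapped, so each of these levels includes a dye effect that the difference between genotypes does not.

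Among the 13 probes of the 8 other measured genes, 4 had higher and 9 had lower values in cKO, where 54.6% of all probes had higher values. Their median difference was −0.01, against 0.01 over all 28682 probes, and their differences ran from −0.06 to 0.19. None of the 13 passed in limma (1 at an unadjusted p under 0.05) and in none were the genotypes apart. Of all probes 0.0105% passed and 0.757% were apart in either direction. SEs were 0.05 to 0.12, against a median of 0.07 over all probes. All 13 probes, and 98.6% of all probes, had a 95% interval that stayed inside 1.5-fold in both directions. The highest limit was 1.30-fold, at Map3k9, and the lowest was 1.22-fold lower, at Map3k4. The offset pulls the ratios of dim spots towards 0, and with plain background subtraction or with the processed signals the limit held for 12 of 13 probes, the dim Map3k13 probe being the exception. Map3k9 reached 1.58-fold with no marked spot removed before the background fit, and A_52_P656714 of Map3k5 reached 1.69-fold with slide as a block. Within slide 2 the limits of these probes were 1.54-fold and 1.61-fold.

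**Figure D3:**
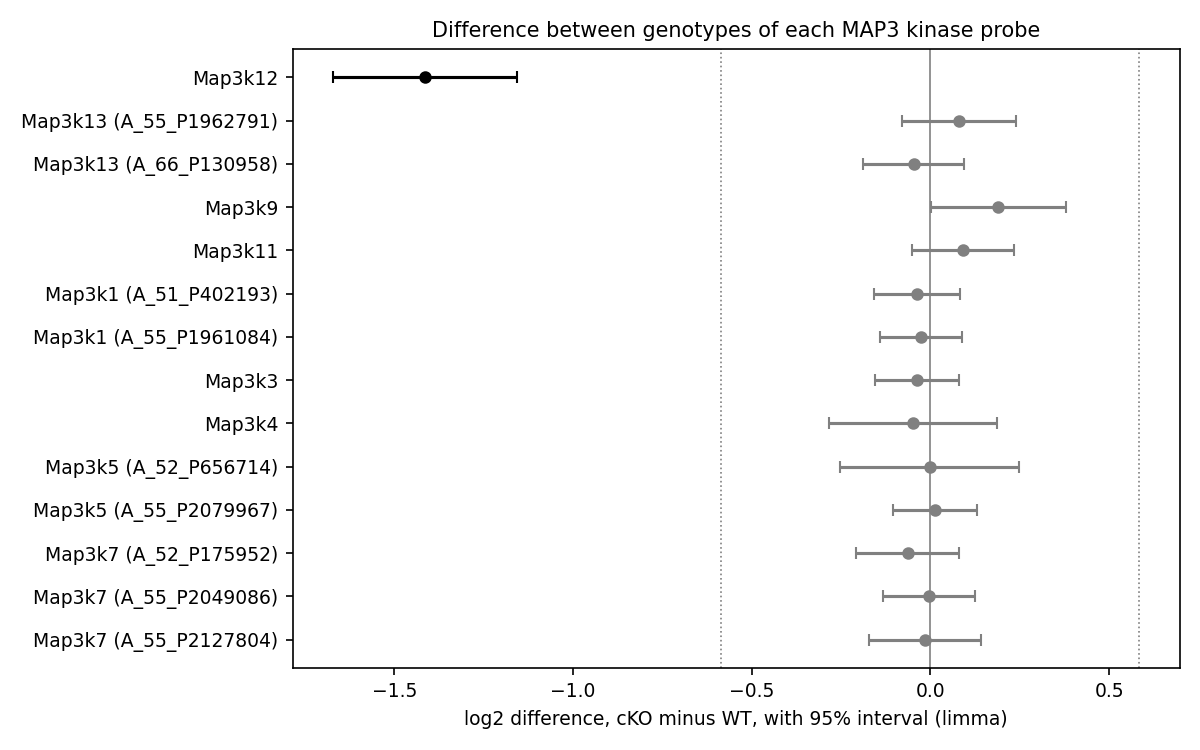
Log2 difference, cKO minus WT (horizontal axis), with its 95% interval from limma at the 14 measured family probes, n = 5 mice per genotype. Map3k12, in black, passed the threshold at −1.41; the other 13 intervals, in grey, lie inside the dotted lines at 1.5-fold either way.

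**Figure D4:**
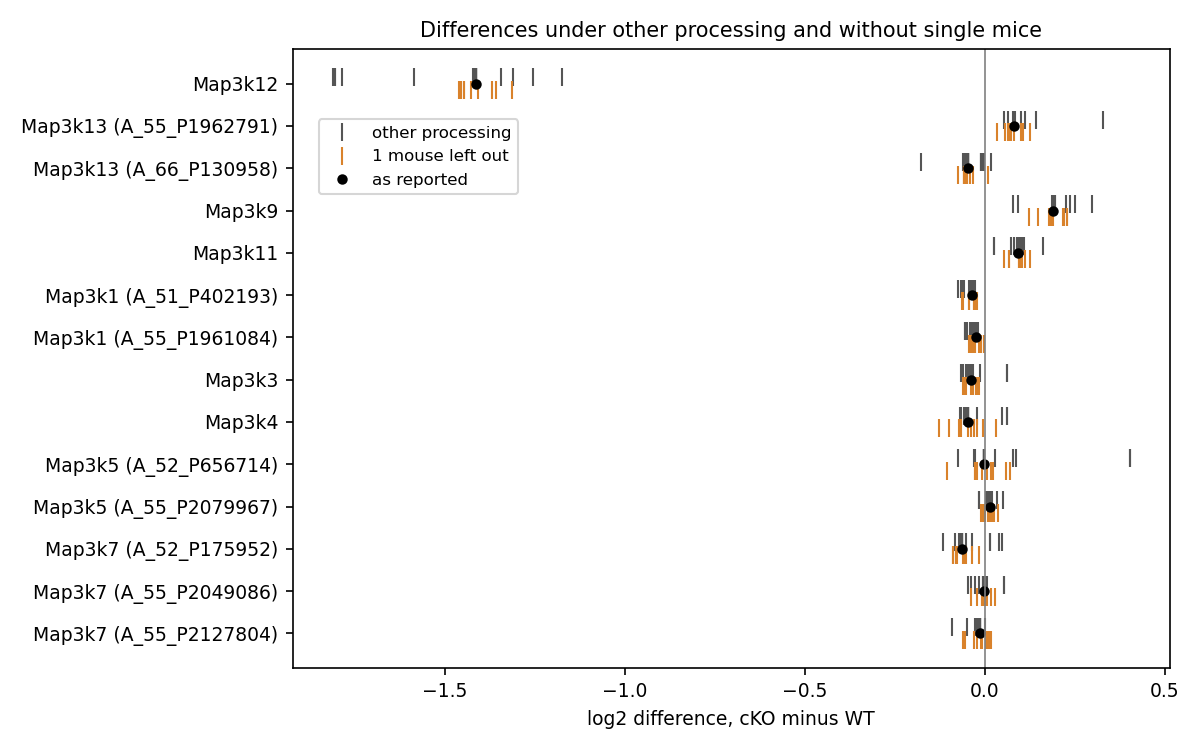
The same log2 differences (horizontal axis) as reported (points), under other processing (grey ticks) and with 1 mouse left out (orange ticks). Map3k12 ranged from −1.81 to −1.18 under other processing and from −1.46 to −1.31 without single mice, while the other probes lay around 0, with A_52_P656714 of Map3k5 reaching 0.40, the dim Map3k13 probe 0.33 and Map3k9 0.30, and the brighter Map3k13 probe reaching −0.18 with Cy5 alone.

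The genes around the family were read in 6 lists, each gene through its brightest probe. Of 66 measured genes 29 had higher and 37 had lower values in cKO, and none passed in limma (2 at an unadjusted p under 0.05). Over all 16268 named genes 0.00615% passed, 4.22% had an unadjusted p under 0.05 and 57.5% had higher values, with a median difference of 0.01.

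The remaining MAP3 kinases had a median difference of −0.01, with 5 of 12 higher. The 2 with the smallest unadjusted p were Map3k2 (MEKK2), at −0.11 (SE 0.07), and Taok1, a kinase upstream of p38, at 0.12 (SE 0.09). With slide as a block the sign of Map3k2 turned, to 0.05 (SE 0.12). Taok1 ran from 0.07 without cKO replicate 1 and 0.08 without cKO replicate 4 to 0.20 without cKO replicate 5. Map3k20 was not kept. MAP4 kinases, which act upstream of several MAP3 kinases, had a median of 7.1e-05, with 3 of 6 higher. Map4k2 was at 0.19 (SE 0.09) and Map4k1 at −0.07 (SE 0.08), and no probe was matched to Map4k3.

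Below the family, MAP2 kinases had a median difference of 0.06, with 4 of 7 higher. Map2k7 encodes MKK7, one of the JNK kinases that DLK phosphorylates. It had a log2 ratio of 0.43 ± 0.11 in cKO and 0.34 ± 0.07 in WT mice (SD, n = 5 each), a difference of 0.09 (SE 0.06). The size of this difference depended on the processing: it was 0.48 (SE 0.14) with the scanner software's processed signals, 0.21 (SE 0.14) with plain background subtraction and 0.06 without cKO replicate 1, and it passed in none of these. Map2k4, which encodes MKK4, was at 2.24 ± 0.22 in cKO and 2.18 ± 0.23 in WT mice (SD, n = 5 each). Map2k5 was at 0.11 (SE 0.08), and its sign turned with slide as a block, to −0.02 (SE 0.14).

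MAP kinases had a median of 0.0047, with 6 of 10 higher. Mapk10 encodes JNK3, the JNK isoform enriched in neurons. Its log2 ratios were 6.35, 6.33, 6.28, 6.36 and 6.49 in cKO replicates 1 to 5, against 6.23, 6.09, 6.27, 6.11 and 6.29 in WT replicates 1 to 5. There was 1 cKO mouse inside the WT range and 4 lay above it. The difference of 0.16 (SE 0.06) had an unadjusted p of 0.0204 and a limma adjusted p of 0.99995, and it was 0.27 with no marked spot removed before the background fit and 0.06 with Cy5 alone. The pan-neuronal markers had a median difference of 0.13 in the same mice, with 5 of 5 higher, and their part in this value was not tested. The JNK genes Mapk8 and Mapk9 were at 0.01 (SE 0.11) and 0.0015 (SE 0.07), and Mapk3, which encodes ERK1, was at −0.08 (SE 0.06).

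Partners and regulators of MAP3 kinases had a median of −0.0068, with 10 of 21 higher. Mapk8ip2, a JNK scaffold, was at 0.12 (SE 0.06) and Gadd45b, an activator of MEKK4, at −0.17 (SE 0.09). With slide as a block the sign of Gadd45b turned, to 0.11 (SE 0.14). Mapk8ip2 was at 0.27 with no marked spot removed before the background fit and at 0.04 with Cy5 alone. Mycbp2 and Fbxo45, which form the ubiquitin ligase that limits DLK protein, were at −0.03 (SE 0.13) and 0.05 (SE 0.09). Usp9x, a deubiquitinase that opposes this ligase, was at −0.04 (SE 0.08).

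Genes that respond to JNK or encode its nuclear targets had 9 of 10 lower values, where 57.5% of all named genes had higher ones. Their median difference was −0.05, and some of the lower values were close to 0, such as that of Atf3 below. None of the 10 passed in limma, and 1 had an unadjusted p under 0.05. Jun, the transcription factor whose own gene it drives, had log2 ratios of −0.09, −0.55, −0.65, −0.29 and −0.81 in cKO replicates 1 to 5, against −0.71, 0.06, −0.04, 0.18 and 0.20 in WT replicates 1 to 5. Of the WT mice 4 were higher than every cKO mouse, and WT replicate 1 lay among the cKO mice. That mouse also had the highest striatal markers. The difference of −0.42 (SE 0.18) had an unadjusted p of 0.0341 and a limma adjusted p of 0.99995, and it ran from −0.58 to −0.33 when single mice were left out. Fos was at −0.24 (SE 0.23), Bbc3, which encodes the cell death protein PUMA, at −0.15 (SE 0.11), and Atf3 at −0.0018 (SE 0.09). For Bbc3, WT replicate 5 stood at 0.05, against −0.66 to −0.46 in the other 4 WT mice, and without that mouse the difference was −0.03. Bcl2l11 was not kept.

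**Figure D5:**
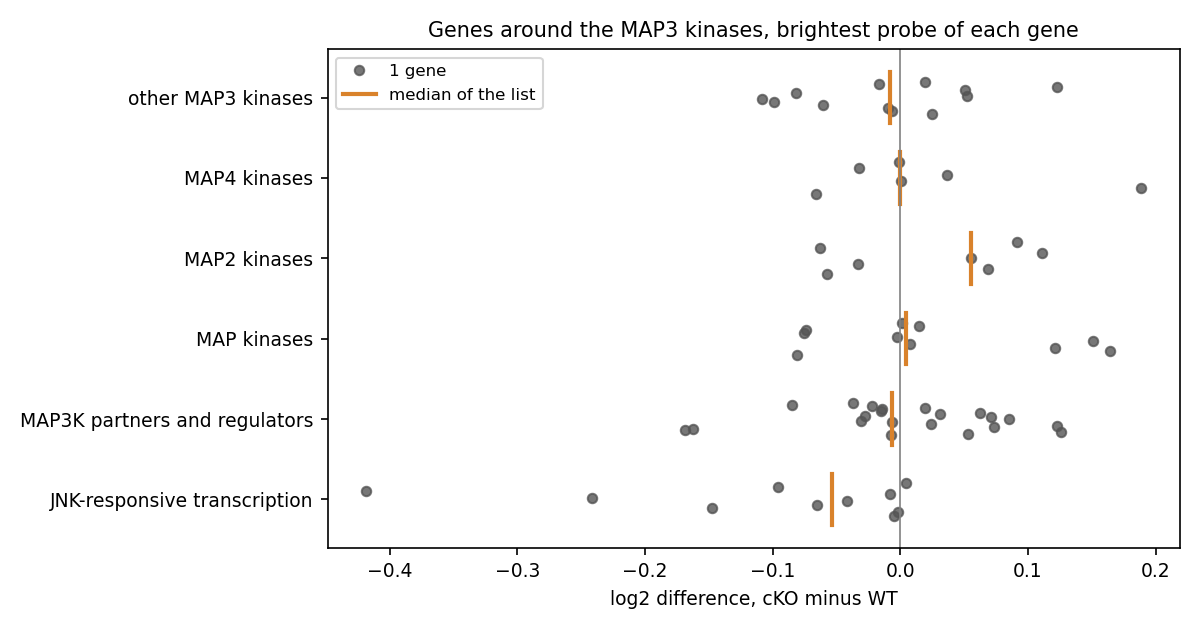
Log2 difference, cKO minus WT (horizontal axis), of 66 genes in 6 lists around the MAP3 kinases, with 1 point per gene and the list median as an orange bar. The list medians lie between −0.05 and 0.06, and Jun at −0.42 is the point farthest to the left.

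Named probes whose log ratios ran most like those of Map3k12 over the 10 arrays were those of Rab30 (Pearson r 0.92), Dpyd (0.87) and Coq8a (0.87). They were chosen for this likeness, which the difference between genotypes at Map3k12 shapes, and their own differences were −0.25 (SE 0.06), −0.67 (SE 0.12) and −0.14 (SE 0.05), none of which passed. For the brighter Map3k13 probe they were Mup19 (r 0.94), Thada (0.92) and Gdpgp1 (0.91). At that Map3k13 probe cKO replicate 5 stood alone, at 0.07 against 0.31 to 0.40 in the other cKO mice. The part of this low value in the likeness was not tested.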

How the data were processed

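Spot intensity values were deposited by the authors as Agilent Feature Extraction output, version 11.0.1.1 per the file headers: median pixel intensities of spot and local background in both channels. The same deposited files hold dye-normalised processed intensities, their log10 ratio and 0/1 marks per spot. The authors' deposited value table holds log2 ratios, with limma named without a version in the submitters' processing notes; each column correlated with the log2 ratios computed here by at least 0.99997 and had a median of 0.0120 to 0.0204, so its scale and direction are sample over reference. It served as an alternative.

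Each array had 44397 spots, 1377 of them controls. Spots marked as non-uniform were removed, backgrounds were corrected by normexp (offset 50) and log2 ratios normalised by loess within arrays (limma 3.58.1, R 4.3.3). Spots marked as population outliers were dropped and spots of a probe averaged. The order of removal was chosen with both outcomes known. Probes were named through unversioned RefSeq accessions (26581 probes, 67.4%), using assembly GRCm38.p6 for names only because the headers name another build. Genotypes were compared with lmFit and eBayes, two-sided, Benjamini-Hochberg adjusted over 28682 probes, threshold 0.05. The procedure was tested on simulated data. The members, lists and tests were chosen with earlier results of these data known. Every member was named, and from each other list the genes past the threshold or else the 2 with the smallest unadjusted p; further list genes named beside them (Map2k4, Mapk8, Mapk9, Mycbp2, Fbxo45, Usp9x, Fos and Atf3) were picked for their role in the pathway after values were seen. Labels do not say that mice of a genotype came from separate litters. The number of arrays limits the precision.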

Additional observations from a re-analysis of the deposited data

Results flagged for a closer look

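The brighter Map3k13 probe had a log2 ratio of 0.067 in cKO replicate 5, far from the other 4 cKO mice at 0.31 to 0.40. The gap was 0.73 of the range of the group, over the Dixon limit of 0.71 for 5 samples. Of 28 groups of family values tested this was 1, and chance alone marks about 1 group in 20. The spot was also dim in both channels on that array, with a Cy5 signal of 140 and a Cy3 signal of 136, against 247 to 306 and 162 to 195 on the other cKO arrays. That array had the lowest median Cy5 signal, 146, and the highest choroid plexus markers. The part of these in the low value was not tested.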

How the results depend on the processing

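Map3k12 kept its direction in all 28 alternatives, although some of them, such as other filters on dim probes or the replicate block, cannot change its difference. With all spots in the background fit it was −1.26 (adjusted p = 0.969), with Cy5 alone −1.18 (0.0717) and within slide 2 −1.81 (0.0565), and in these 3 fits 0 family probes passed. Within slide 2 a single cKO mouse, replicate 2 with its Map3k12 Cy3 signal of 314, is assumed to vary like the WT mice. Without single mice it was −1.46 to −1.31. The number of probes past the threshold, 3 as reported, was 1 with all spots, 1 with Cy5 alone, 0 within slide 2 (2368 at an unadjusted p under 0.05), 1 with the brightest probe per gene and 2 to 4 without single mice. An alternative chosen after the data were seen, which removed only the non-uniform backgrounds of WT replicate 2 from the background fit, gave 3.

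Signs changed in values that had not passed and did not pass under the alternative. Map3k13 was at 0.017 with the mean of its probes and −0.074 to 0.0093 without single mice. With slide as a block, and equally within slide 2, Gadd45b was at 0.11, Map2k5 at −0.017, Map3k2 at 0.052, Map3k3 at 0.060, Map3k4 at 0.060, Map3k5 A_52_P656714 at 0.40, Map3k5 A_55_P2079967 at −0.018, and the Map3k7 probes A_52_P175952 and A_55_P2049086 at 0.015 and 0.054. With array weights Map3k4 was at 0.047 and Map3k5 A_52_P656714 at 0.086. With all spots that Map3k5 probe was at 0.078 and Map3k7 A_55_P2049086 at 0.0043. Cy5 alone put Map3k5 A_52_P656714 at 0.029 and Map3k7 A_52_P175952 at 0.039, and the processed signals put the last at 0.048. Without single mice Map3k4 ran from −0.13 to 0.030, the Map3k5 probes from −0.11 to 0.068 and from −0.010 to 0.036, and the Map3k7 probes for NM_009316 from −0.039 to 0.028 and from −0.060 to 0.018. The causes were not tested.

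Deviations of same-numbered mice from their genotype means correlated by −0.56 to 0.16. These were not set against mice of different numbers, so they cannot show whether replicate numbers pair the mice. With the replicate block Map3k12 was at −1.41 (adjusted p = 0.00813) and 2 probes passed.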
